A study of Homo sapiens with 12 samples.

Results

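NIPBL-DT, BCLAF1, TMEM185B, C1orf210, SLC44A4 and HAUS8 are 6 of the 24395 features measured in HEK293T cells, and they were chosen by their levels: cells given dCas9 alone differed in them from cells given 1 or more dCas9 fusions. The rule used the fold changes against dCas9, so every value against dCas9 is given here as a description with no test. The fusion libraries entered that choice as well, so differences between fusions are not independent of it. HEK293T cells derive from human embryonic kidney and express the large T antigen of the virus SV40. Cells were transfected by Lipofectamine with plasmids for dCas9-VP64, dCas9-p300 core, dCas9-p300 D1399Y or dCas9 alone, with 3 libraries of poly(A) RNA in each group. VP64 is a viral activation domain, the core is the catalytic part of the histone acetyltransferase p300, the D1399Y change removes that activity, and dCas9 alone binds DNA without cutting it. All 4 groups also received guide RNAs to 4 sites at IL1RN, so the groups differ in the protein and not in the guides. The labels state no sorting of transfected cells, and in such bulk libraries fewer cells expressing a gene and less RNA per cell cannot be told apart.

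The libraries held between 2442960 counts, in dCas9 replicate 3, and 5154627 counts, in dCas9-p300 core replicate 2. Levels are given as CPM, counts relative to the library total, on library sizes scaled by TMM, a factor that evens out the bulk of genes between libraries. The labels say no more than that transfections were done in triplicate, so a p-value here speaks only of how far these samples differ among themselves. The guided gene moved with the labels: IL1RN averaged 24.7 ± 6.07 CPM in dCas9-VP64 libraries, 83.6 ± 8.64 CPM in dCas9-p300 core libraries and 7.78 ± 1.42 CPM in dCas9-p300 D1399Y libraries, against 6.74 ± 2.51 CPM in dCas9 libraries (SD, n = 3 each). HEK293T markers summed to between 415 and 686 CPM, with VIM, KRT8 and KRT18 in every library and PAX8 at 0 to 3 counts. Marker sums for endothelium (0.710 to 5.73 CPM), leukocytes (4.86 to 13.5 CPM), fibroblasts (21.5 to 35.2 CPM) and keratinocytes (3.24 to 9.82 CPM) were lower, and CD3E, KRT5 and KRT14 were at 0 in all 12 libraries. Replicate 3 of dCas9 stood apart from its group. It differed from dCas9 replicates 1 and 2 by a chi-square of 19.4 and 22.0 per gene, while the other 10 pairs of replicates within a group lay between 2.60 and 6.71. The log2 differences of genes from dCas9, and the medians of gene lists, are therefore given with and without it. Over all 14613 tested genes, all 6 members included, the edgeR quasi-likelihood test against dCas9 called 0% with dCas9-VP64, 0.00684% with dCas9-p300 core and 0% with dCas9-p300 D1399Y at an adjusted p under 0.05. IL1RN was the gene called, and 449, 454 and 861 genes had an unadjusted p under 0.05.

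The 6 genes share no pathway by textbook knowledge. NIPBL-DT is a long noncoding RNA transcribed away from the start of NIPBL, whose protein loads the cohesin ring onto chromatin. BCLAF1 encodes a nuclear protein rich in arginine and serine that binds RNA together with splicing factors and was first described as a partner of BCL2 family proteins. TMEM185B encodes a membrane protein with several transmembrane segments and has a close relative, TMEM185A. C1orf210 encodes TEMP, a membrane protein of endosomes. SLC44A4 belongs to the choline transporter-like family and carries thiamine pyrophosphate into intestinal cells. HAUS8 is a subunit of augmin, the complex that binds spindle microtubules and brings the gamma-tubulin ring complex to them so that new microtubules branch off.

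RefSeq start windows on GRCh38.p14, each 250 bases before to 50 bases after an annotated start, were found for all 6 genes. Levels of the genes that were lower with dCas9 alone ran together across the libraries, and so did those of SLC44A4 and HAUS8. The choice of the genes by their dCas9 levels fixed part of this. The windows of these genes are printed. Each is read 5′ to 3′ on the minus strand, the strand of its gene, and capitals mark the GC box GGGCGG or its complement CCGCCC and the ETS motif CCGGAAG or its complement CTTCCGG.
NIPBL-DT, chr5:36876645-36876944: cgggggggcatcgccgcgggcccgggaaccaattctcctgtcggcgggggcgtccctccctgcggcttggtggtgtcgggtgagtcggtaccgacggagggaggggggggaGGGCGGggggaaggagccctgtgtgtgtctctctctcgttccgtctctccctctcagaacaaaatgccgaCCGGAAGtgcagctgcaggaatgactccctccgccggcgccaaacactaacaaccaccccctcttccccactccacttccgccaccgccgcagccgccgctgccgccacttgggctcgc
BCLAF1, chr6:136289797-136290096: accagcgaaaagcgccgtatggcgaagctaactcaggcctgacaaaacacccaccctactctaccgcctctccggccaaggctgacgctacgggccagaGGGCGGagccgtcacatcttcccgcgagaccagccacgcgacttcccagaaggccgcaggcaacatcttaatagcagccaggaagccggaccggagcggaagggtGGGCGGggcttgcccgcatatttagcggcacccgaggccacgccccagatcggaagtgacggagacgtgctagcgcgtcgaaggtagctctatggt
TMEM185B, chr2:120223351-120223650: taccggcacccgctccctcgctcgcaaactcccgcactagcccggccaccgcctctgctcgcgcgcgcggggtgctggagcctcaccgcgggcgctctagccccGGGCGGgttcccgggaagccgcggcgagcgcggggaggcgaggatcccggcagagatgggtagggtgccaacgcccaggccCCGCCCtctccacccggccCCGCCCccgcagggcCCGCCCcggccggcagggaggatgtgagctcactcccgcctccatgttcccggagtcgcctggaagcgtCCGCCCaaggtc
SLC44A4, chr6:31878948-31879247: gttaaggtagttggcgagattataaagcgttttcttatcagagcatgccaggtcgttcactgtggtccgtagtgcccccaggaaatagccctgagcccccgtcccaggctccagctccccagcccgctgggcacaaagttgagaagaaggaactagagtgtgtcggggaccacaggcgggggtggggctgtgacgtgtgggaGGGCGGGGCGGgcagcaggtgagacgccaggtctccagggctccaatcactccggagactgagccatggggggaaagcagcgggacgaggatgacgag
HAUS8, chr19:17075403-17075702: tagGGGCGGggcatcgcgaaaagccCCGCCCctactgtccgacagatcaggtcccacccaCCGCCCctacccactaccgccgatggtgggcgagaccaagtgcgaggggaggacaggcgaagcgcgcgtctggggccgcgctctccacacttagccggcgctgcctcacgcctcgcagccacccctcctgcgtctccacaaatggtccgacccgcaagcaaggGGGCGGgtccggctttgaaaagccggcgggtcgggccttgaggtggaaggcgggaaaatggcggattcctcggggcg

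The start windows were richer in GC than most. GC content was 69.0% for NIPBL-DT, 63.3% for BCLAF1, 76.3% for TMEM185B, 61.0% for C1orf210, 61.7% for SLC44A4 and 69.0% for HAUS8, against a median of 58.7% over 35116 windows. The windows of NIPBL-DT, BCLAF1, TMEM185B and HAUS8 held 28, 29, 38 and 32 CpG dinucleotides, while those of C1orf210 and SLC44A4 held 12 and 16, on either side of the median of 14. GC boxes numbered 1 in NIPBL-DT, 2 in BCLAF1, 5 in TMEM185B, 3 in C1orf210, 2 overlapping in SLC44A4 and 4 in HAUS8, and 45.0% of all windows held at least 1. The ETS motif, present in 10.3% of all windows, occurred in the NIPBL-DT and C1orf210 windows. The CCAAT box (CCAAT or ATTGG, in 34.6% of all windows) was present in NIPBL-DT, C1orf210 and SLC44A4, the TATA box (TATAAA or TTTATA, 11.5%) in SLC44A4, and the core of the cyclic AMP response element (TGACG or CGTCA, 24.6%) in BCLAF1 and SLC44A4. A match is a description of letters, and none of these motifs was held by all the genes on either side of dCas9 except the GC box. A further annotated start of SLC44A4 held none of the 5 motifs, and one of HAUS8 held 3 GC boxes, 1 ETS motif and 1 TGACG. The NIPBL-DT and NIPBL starts lay 75 bases apart on opposite strands, and their windows shared 174 bases. In gene order TMEM185B lies on chromosome 2, which also carries IL1RN, NIPBL-DT on chromosome 5, BCLAF1 and SLC44A4 on chromosome 6, C1orf210 on chromosome 1 and HAUS8 on chromosome 19.

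NIPBL-DT RNA was lower in cells with dCas9 alone than in cells with any fusion. In replicates 1, 2 and 3 it had 39.2, 39.2 and 35.1 CPM in dCas9-VP64 libraries, 35.8, 33.0 and 32.6 CPM in dCas9-p300 core libraries and 37.7, 44.5 and 38.6 CPM in dCas9-p300 D1399Y libraries, against 25.5, 26.5 and 25.6 CPM in dCas9 libraries. All 9 fusion libraries lay above all 3 dCas9 libraries, which averaged 25.9 ± 0.586 CPM (SD, n = 3). That small spread did not hold with the offsets for transcript length and GC content described below, at 31.7 ± 10.8 CPM. The counts behind the levels without offsets ran from 124 to 171 in the fusion libraries and from 69 to 111 in the dCas9 libraries. NIPBL-DT was 1.46-fold higher with dCas9-VP64 than with dCas9 (log2 0.55 ± 0.14, SE), 1.30-fold higher with dCas9-p300 core (0.38 ± 0.14) and 1.55-fold higher with dCas9-p300 D1399Y (0.64 ± 0.14). Leaving out dCas9 replicate 3 gave log2 values of 0.54, 0.37 and 0.63 in the same order, close to those from all 12 libraries.

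**Figure D1:**
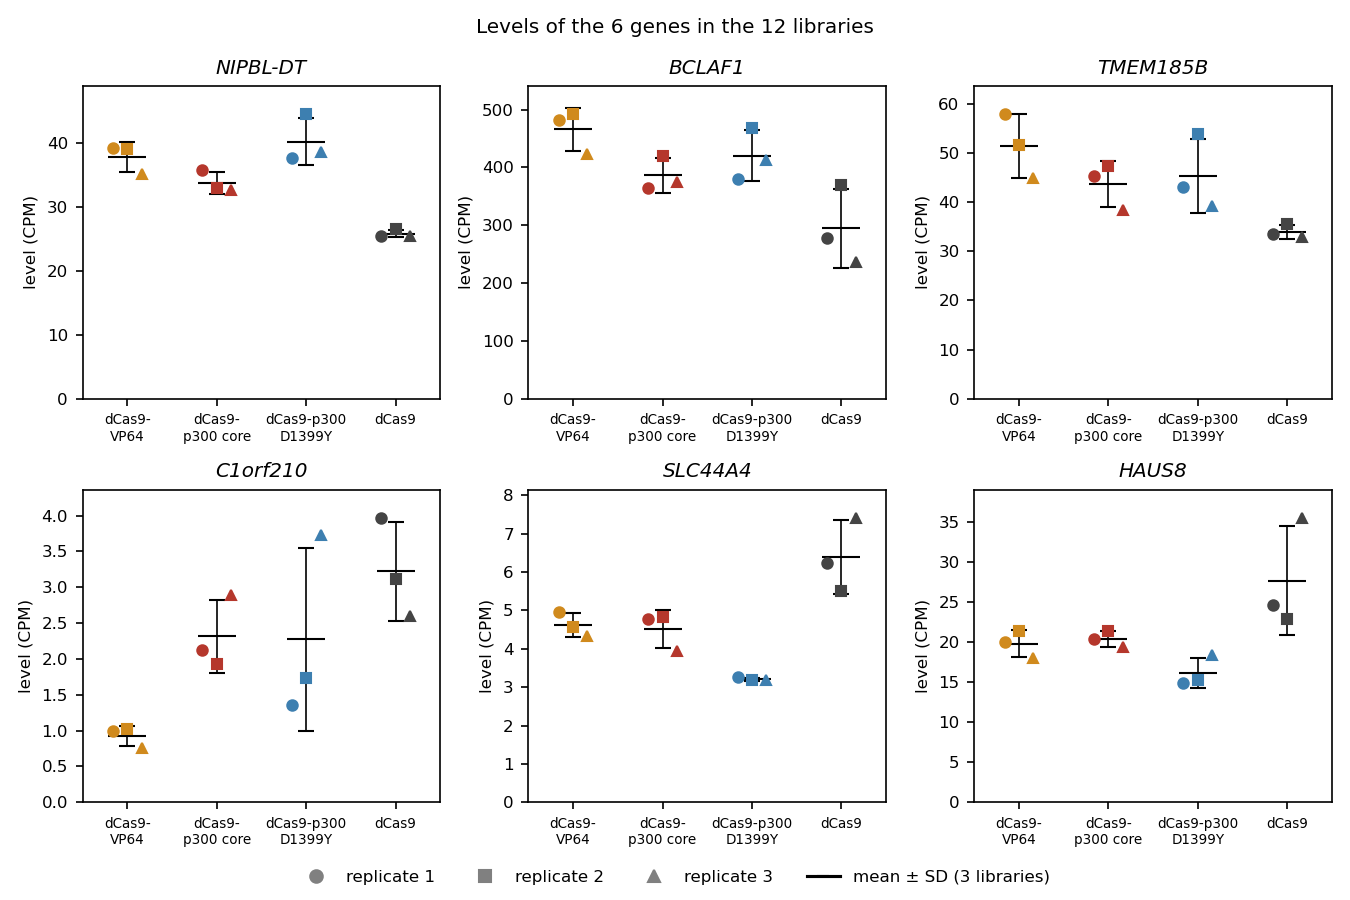
Levels of the 6 genes in CPM (vertical axes, starting at 0) in the 12 libraries, by group, with symbols for the replicate number and bars for the mean ± SD of 3 libraries. NIPBL-DT and TMEM185B lie lower in the 3 dCas9 libraries than in all 9 fusion libraries, SLC44A4 and HAUS8 lie higher, and BCLAF1 and C1orf210 overlap.

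NIPBL itself, which starts beside NIPBL-DT and reads the other way, showed another pattern. It had 162, 151 and 151 CPM in dCas9-VP64 libraries, 145, 171 and 191 CPM in dCas9-p300 core libraries and 181, 223 and 183 CPM in dCas9-p300 D1399Y libraries, against 173, 199 and 54.1 CPM in dCas9 libraries. Replicates 1 and 2 of dCas9 lay inside the range of the fusions and replicate 3 far below it, whereas NIPBL-DT was low in all 3. The log2 difference of NIPBL from dCas9 was 0.12 ± 0.32 with dCas9-VP64, 0.24 ± 0.32 with dCas9-p300 core and 0.46 ± 0.32 with dCas9-p300 D1399Y. Leaving out dCas9 replicate 3, these values were -0.26, -0.14 and 0.08. Of 14 tested genes of cohesin loading, ring and release, 0 passed the test in any of the 3 comparisons with dCas9. Their median log2 differences were 0.11, 0.14 and 0.28, with 12, 11 and 12 genes above zero, beside medians over all 14613 tested genes of 0.00, 0.02 and 0.00. The cohesin medians without dCas9 replicate 3 were -0.03, -0.03 and 0.06, with 4, 2 and 10 genes above zero, so the higher values with dCas9-VP64 and dCas9-p300 core rested on that library. ESCO2, which acetylates cohesin in S phase, had 0.28, 0.21 and 0.47, or 0.08, 0.01 and 0.27 without dCas9 replicate 3. CDCA5, which protects cohesin from release, had -0.15, -0.16 and -0.27, or -0.03, -0.04 and -0.15 without it.

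BCLAF1 was the most abundant of the 6 genes by summed counts. Per length of transcript it had 63.3 CPM per kilobase over the 4 groups, against 1.82 to 20.5 CPM per kilobase for the others. If reads shared by its 3 transcripts were counted for each of them, BCLAF1 would be overstated beside genes with fewer transcripts. Its replicates gave 482, 492 and 423 CPM in dCas9-VP64 libraries, 364, 421 and 374 CPM in dCas9-p300 core libraries and 381, 468 and 413 CPM in dCas9-p300 D1399Y libraries, against 279, 369 and 236 CPM in dCas9 libraries. The groups overlapped: dCas9 replicate 2 stood above the lowest dCas9-p300 core library, and the other 8 fusion libraries lay above all 3 dCas9 libraries. BCLAF1 was 1.58-fold higher with dCas9-VP64 than with dCas9 (log2 0.66 ± 0.16), 1.31-fold higher with dCas9-p300 core (0.39 ± 0.16) and 1.43-fold higher with dCas9-p300 D1399Y (0.51 ± 0.16). The size depended on single dCas9 libraries. Without dCas9 replicate 3 the log2 values were 0.52, 0.25 and 0.38, and without dCas9 replicate 2 they were 0.86, 0.59 and 0.71. The 3 BCLAF1 transcripts counted apart gave nearly the same log2 values for dCas9-VP64, 0.63, 0.68 and 0.64, and the sources used here do not give how reads shared by isoforms were assigned. The pseudogenes BCLAF1P1 and BCLAF1P2 match BCLAF1 over 2764 bases at 96.3% and over 2397 bases at 99.0%, so a share of BCLAF1 reads could be misplaced.

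Among 11 tested relatives and splicing partners of BCLAF1, 0 passed the test against dCas9, and their medians were 0.01 with dCas9-VP64, -0.01 with dCas9-p300 core and -0.05 with dCas9-p300 D1399Y, or -0.04, -0.02 and -0.07 without dCas9 replicate 3. RNPS1, a subunit of a splicing complex with ACIN1, had log2 differences of -0.27, -0.22 and -0.24, and SAP18 of the same complex had -0.13, -0.22 and -0.32. Without dCas9 replicate 3 the values of RNPS1 were -0.07, -0.02 and -0.03 and those of SAP18 were 0.08, -0.01 and -0.10. In the BCL2 family, for which BCLAF1 is named, 0 of 15 tested genes passed, and medians were -0.12, -0.13 and -0.21 with 4, 4 and 6 genes above zero. The medians of that family without dCas9 replicate 3 were -0.02, -0.07 and -0.04, with 6, 3 and 7 genes above zero. BBC3, which encodes the death-promoting protein PUMA, had log2 values of -0.41 ± 0.22, -0.55 ± 0.22 and -0.59 ± 0.22, which shrank to -0.11, -0.25 and -0.28 without dCas9 replicate 3. BAX had -0.11, -0.23 and -0.53, or 0.07, -0.05 and -0.35 without it.

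TMEM185B was also lower with dCas9 alone. Its replicates gave 57.8, 51.7 and 44.8 CPM in dCas9-VP64 libraries, 45.3, 47.3 and 38.4 CPM in dCas9-p300 core libraries and 43.2, 53.8 and 39.1 CPM in dCas9-p300 D1399Y libraries, against 33.4, 35.6 and 33.0 CPM in dCas9 libraries. The 3 dCas9 libraries lay below all 9 others, and the gap between the highest dCas9 library and the lowest fusion library was narrow. TMEM185B was 1.51-fold higher with dCas9-VP64 (log2 0.59 ± 0.16), 1.28-fold higher with dCas9-p300 core (0.36 ± 0.16) and 1.33-fold higher with dCas9-p300 D1399Y (0.41 ± 0.16). Without dCas9 replicate 3 these were 0.57, 0.34 and 0.39, and without dCas9-p300 D1399Y replicate 2 the last was 0.26. Its relative TMEM185A, 80.5% identical over 1059 aligned bases of transcript, lay between 49.8 and 63.6 CPM in the 9 fusion libraries and between 52.1 and 58.8 CPM in the 3 dCas9 libraries. The log2 differences of TMEM185A were -0.06 ± 0.13, 0.02 ± 0.13 and -0.09 ± 0.13, or -0.07, 0.01 and -0.10 without dCas9 replicate 3.

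**Figure D2:**
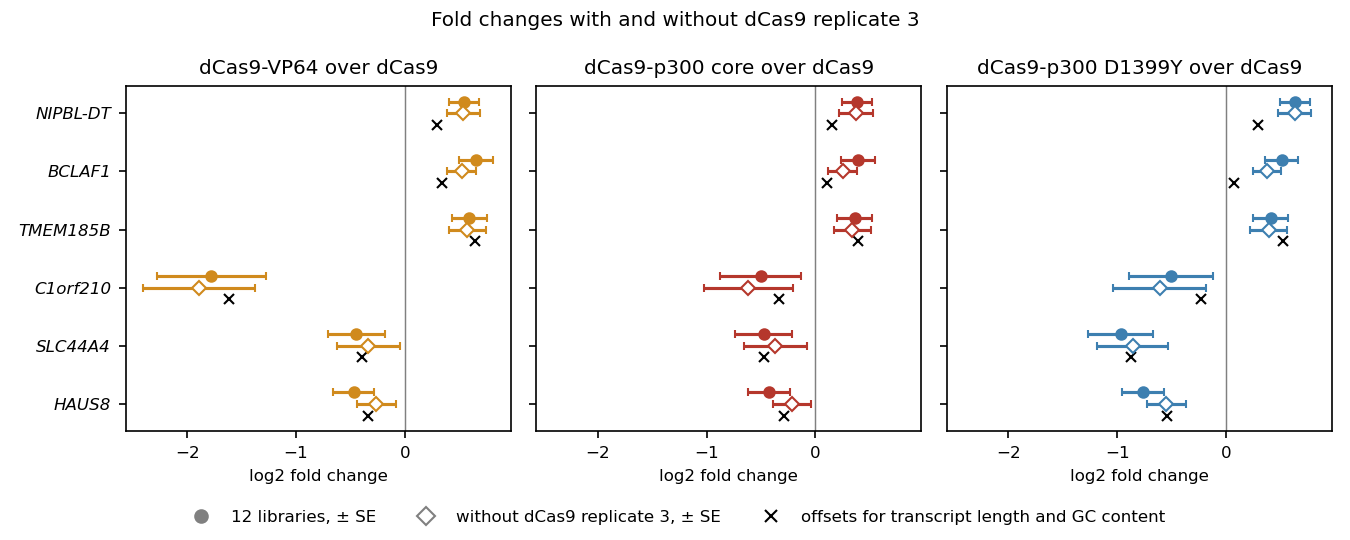
Log2 fold change of each gene (horizontal axes, shared) for each fusion over dCas9, from all 12 libraries and without dCas9 replicate 3 (bars, SE), and with offsets for transcript length and GC content (crosses, no error drawn). NIPBL-DT, BCLAF1 and TMEM185B lie right of 0 and the other genes left of it, the side by which they were chosen, and the crosses of BCLAF1 lie nearest 0 with the p300 fusions.

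C1orf210 was rare, with 3 to 14 counts per library, and was lowest with dCas9-VP64. Its replicates gave 0.993, 1.02 and 0.764 CPM in dCas9-VP64 libraries, 2.12, 1.93 and 2.89 CPM in dCas9-p300 core libraries and 1.36, 1.73 and 3.73 CPM in dCas9-p300 D1399Y libraries, against 3.97, 3.11 and 2.59 CPM in dCas9 libraries. The dCas9-VP64 libraries lay below the other 9 libraries, while both p300 groups overlapped dCas9. C1orf210 summed to 11 counts over the dCas9-VP64 libraries, 29 with dCas9-p300 core and 25 with dCas9-p300 D1399Y, against 34 with dCas9. Its transcripts differed: NM_001164829 had 6, 8 and 6 counts in dCas9-p300 core libraries against 6, 5 and 2 in dCas9 libraries. NM_182517 had 2, 2 and 5 against 8, 8 and 5. In dCas9-VP64 libraries the counts were 2, 3 and 1 and 2, 1 and 2, and in dCas9-p300 D1399Y libraries 0, 2 and 7 and 5, 4 and 7. Its log2 difference from dCas9 was -1.78 ± 0.50 with dCas9-VP64, -0.50 ± 0.38 with dCas9-p300 core and -0.50 ± 0.39 with dCas9-p300 D1399Y, and without dCas9 replicate 3 these were -1.89, -0.61 and -0.61. The highest library of each p300 group was replicate 3, the 2 libraries that the labels name CV42 where the other 10 are named CV41. Within the CV41 libraries the log2 values were -1.78, -0.68 and -1.06, with the pool name as a covariate the dCas9-p300 core value was -0.82, and without dCas9-p300 D1399Y replicate 1 the D1399Y value was -0.23. Of 11 tested genes of early endosomes and RAB5, the compartment of its protein's class, 0 passed, with medians of 0.15, 0.13 and 0.20, or -0.03, -0.02 and 0.07 without dCas9 replicate 3. ANKFY1, a RAB5 effector, had 0.36, 0.30 and 0.38, or 0.17, 0.11 and 0.20 without that library. APPL1, an adaptor on early endosomes, had 0.20, 0.14 and 0.41, or 0.03, -0.02 and 0.24 without it.

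SLC44A4 was higher with dCas9 alone and lowest with dCas9-p300 D1399Y. Its replicates gave 4.96, 4.58 and 4.33 CPM in dCas9-VP64 libraries, 4.77, 4.83 and 3.95 CPM in dCas9-p300 core libraries and 3.26, 3.18 and 3.19 CPM in dCas9-p300 D1399Y libraries, against 6.23, 5.50 and 7.41 CPM in dCas9 libraries. All 9 fusion libraries lay below all 3 dCas9 libraries, on 11 to 25 counts and 20 to 23 counts per library. The transcript NM_001178045 did not follow this, with 3, 4 and 7 counts in dCas9 libraries. It had 7, 7 and 4 counts in dCas9-VP64 libraries, 6, 7 and 6 in dCas9-p300 core libraries and 5, 3 and 5 in dCas9-p300 D1399Y libraries. The log2 difference from dCas9 was -0.45 ± 0.26 with dCas9-VP64, -0.47 ± 0.26 with dCas9-p300 core and -0.97 ± 0.30 with dCas9-p300 D1399Y, or -0.34, -0.37 and -0.86 without dCas9 replicate 3. SLC44A4 overlaps the antisense gene EHMT2-AS1 in the annotation, and the sources used here give no strand setting for the counting, so reads of that gene could be among its counts.

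In the choline transporter-like family 0 of 4 other tested genes passed, with medians of 0.01, 0.16 and 0.15, or -0.16, 0.02 and 0.01 without dCas9 replicate 3, and SLC5A7, the neuronal choline transporter, was at 0 in all libraries. SLC44A5 had log2 differences of the other sign from SLC44A4, 0.67 ± 0.32, 0.45 ± 0.32 and 0.65 ± 0.32. It had 73.5, 62.6 and 59.1 CPM in dCas9-VP64 libraries, 50.8, 63.6 and 53.7 CPM in dCas9-p300 core libraries and 58.1, 78.9 and 56.7 CPM in dCas9-p300 D1399Y libraries, against 35.7, 67.2 and 17.8 CPM in dCas9 libraries. The dCas9 libraries of SLC44A5 spanned a wider range than all fusions together, with replicate 3 lowest, and without that replicate the log2 differences were 0.33, 0.12 and 0.32. Of 5 tested genes of thiamine uptake and use 0 passed, with medians of 0.04, -0.04 and -0.02, or 0.01, 0.11 and -0.05 without dCas9 replicate 3.

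HAUS8 was higher with dCas9 alone, most of all in replicate 3. Its replicates gave 20.1, 21.4 and 18.1 CPM in dCas9-VP64 libraries, 20.4, 21.4 and 19.5 CPM in dCas9-p300 core libraries and 14.9, 15.3 and 18.4 CPM in dCas9-p300 D1399Y libraries, against 24.7, 23.0 and 35.6 CPM in dCas9 libraries. The 9 fusion libraries lay below all 3 dCas9 libraries, and dCas9 replicates 1 and 2 lay just above the highest fusion library. The log2 difference was -0.47 ± 0.19 with dCas9-VP64, -0.43 ± 0.19 with dCas9-p300 core and -0.76 ± 0.20 with dCas9-p300 D1399Y. Without dCas9 replicate 3 it was -0.26 ± 0.18, -0.22 ± 0.18 and -0.55 ± 0.18. The HAUS8 transcripts NM_001011699 and NM_033417 counted apart gave -0.45 ± 0.20 and -0.49 ± 0.27 for dCas9-VP64. They gave -0.45 and -0.41 for dCas9-p300 core and -0.77 and -0.74 for dCas9-p300 D1399Y. Reads shared by both transcripts may be counted in each, so nothing is read from their likeness.

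The other augmin subunits had values on both sides of zero. Of 7 tested subunits 0 passed, with medians of 0.09, -0.12 and 0.08, or 0.03, -0.04 and 0.07 without dCas9 replicate 3. HAUS6, the subunit that recruits NEDD1 and with it the gamma-tubulin ring complex, had log2 values of 0.27, 0.15 and 0.38, which became 0.03, -0.09 and 0.14 without dCas9 replicate 3. HAUS7 had -0.12, -0.29 and -0.44, and its sign turned without that library, to 0.39, 0.22 and 0.07. Of 12 tested genes of the gamma-tubulin ring complex 0 passed, with medians of 0.12, 0.03 and 0.12, or -0.01, 0.03 and -0.02 without dCas9 replicate 3. TUBGCP3, a core subunit, had 0.34, 0.32 and 0.40, or 0.21, 0.20 and 0.28 without it. TUBG2, a gamma-tubulin, had -0.45, -0.17 and -0.42, or -0.31, -0.04 and -0.28 without it.

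**Figure D3:**
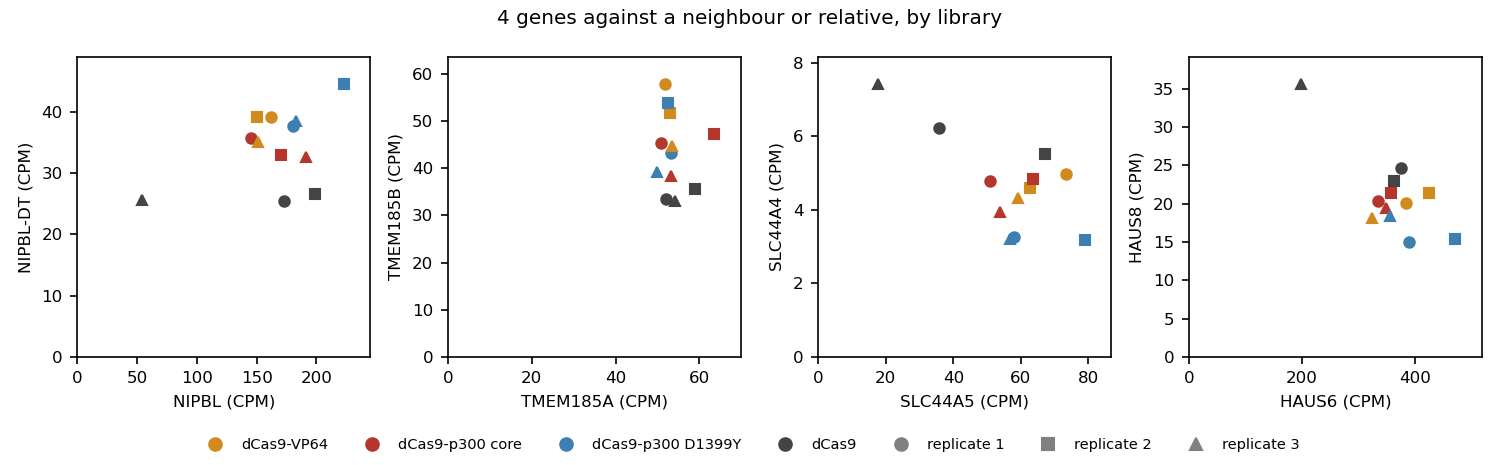
Level of 4 of the genes (vertical axes, CPM) against a neighbour or relative (horizontal axes, CPM) in the 12 libraries, by group colour and replicate symbol. NIPBL, SLC44A5 and HAUS6 are lowest in dCas9 replicate 3, whereas NIPBL-DT and TMEM185B are about level in the 3 dCas9 libraries and TMEM185A in all groups.

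The fusions were then compared with each other. These contrasts hold no dCas9 library, but the members were chosen because a fusion differed from dCas9, so the differences and intervals below describe values that also entered the choice. In 18 comparisons of the 6 genes between fusions 0 passed the edgeR quasi-likelihood test after Benjamini-Hochberg adjustment over 14613 genes, and every adjusted p was 1.00 when rounded. Over all genes 0.00684% passed between dCas9-p300 core and D1399Y, 0.00684% between dCas9-p300 core and dCas9-VP64, and 0% between dCas9-VP64 and D1399Y, which is IL1RN alone in both p300 core comparisons. The genes at an unadjusted p under 0.05 numbered 272, 309 and 97. C1orf210 had the largest difference, and its low dCas9-VP64 levels are among the values by which it was chosen. The log2 difference was 1.28 between dCas9-p300 core and dCas9-VP64 and -1.28 between dCas9-VP64 and D1399Y, the second of which was -0.72 within the CV41 libraries. SLC44A4 differed by 0.52 between dCas9-VP64 and D1399Y (95% interval -0.15 to 1.19) and by 0.49 between dCas9-p300 core and D1399Y (-0.17 to 1.16). HAUS8 was 0.33 apart between dCas9-p300 core and D1399Y (-0.09 to 0.76).

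The genes that were lower with dCas9 alone had log2 differences of at most 0.27 in size between fusions. NIPBL-DT differed by -0.25 between dCas9-p300 core and D1399Y (95% interval -0.54 to 0.04), by -0.16 between dCas9-p300 core and dCas9-VP64 (-0.45 to 0.13) and by -0.09 between dCas9-VP64 and D1399Y (-0.38 to 0.20). BCLAF1 differed by -0.27 between dCas9-p300 core and dCas9-VP64 (-0.60 to 0.06), and TMEM185B by -0.23 (-0.57 to 0.10). TMEM185B differed by -0.05 between dCas9-p300 core and D1399Y, with an interval of -0.39 to 0.29 that leaves room for differences in either direction. These intervals do not show that the fusions act alike on these genes.

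Other genes showed the same kind of pattern. All 3 dCas9 libraries lay below all 9 fusion libraries for 52 genes (0.356%), NIPBL-DT and TMEM185B among them, and above all 9 for 66 genes (0.452%), SLC44A4 and HAUS8 among them. The members were picked for this kind of difference, so nothing is read from these counts. The same count for the other groups was 22 genes below and 14 above for dCas9-VP64, 36 and 133 for dCas9-p300 core and 43 and 18 for dCas9-p300 D1399Y, so groups of 3 libraries stood apart from the rest in each direction whichever group was taken. Over the 52 genes the log2 ratio of the fusion mean to the dCas9 mean had a median of 0.48, from 0.17 to 1.47, beside 0.53 for NIPBL-DT and 0.46 for TMEM185B. Over the 66 genes its median was -0.36, from -1.16 to -0.12, beside -0.63 for SLC44A4 and -0.56 for HAUS8. Without dCas9 replicate 3, 163 of 14764 tested genes lay below and 176 above, these 4 genes among them. Groups that stand apart can hardly come to overlap when a library is left out, so nothing is read from this.

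**Figure D4:**
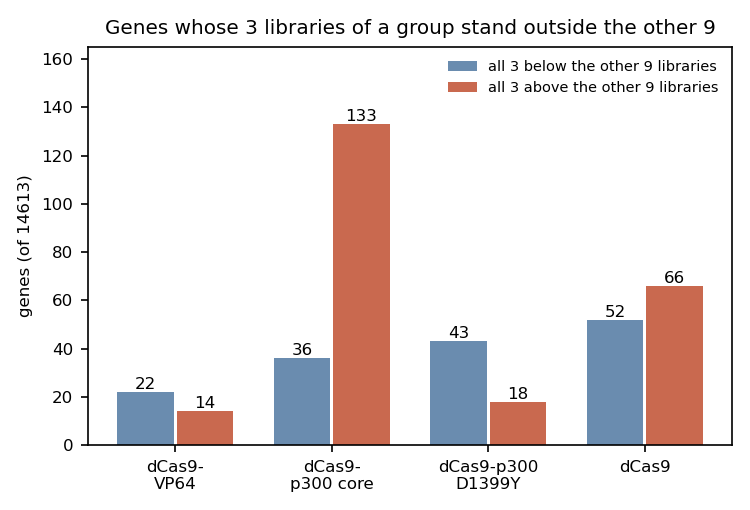
Number of tested genes (vertical axis, from 0) whose 3 libraries of a group all lie below or all lie above the other 9 libraries, for each group. dCas9 has 52 genes below and 66 above, and dCas9-p300 core has the tallest bar, 133 genes above.

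The libraries differed in a tilt with the GC content of the transcripts, and the 6 genes lay on both sides of the median GC content. BCLAF1 and NIPBL-DT transcripts are poor in GC, at 37.1% and 40.2%, below the lower quartile of 42.5%, and they are long. TMEM185B (53.2%), HAUS8 (54.2%), SLC44A4 (55.2%) and C1orf210 (57.2%) lie above the median of 48.6%, and of these only C1orf210 lies above the upper quartile of 56.7%. Relative to the 12-library mean, genes below the lower GC quartile had a median log2 ratio of -0.47 in dCas9 replicate 3, and genes above the upper quartile had 0.42. In dCas9-p300 D1399Y replicate 2 the tilt ran the other way, 0.31 and -0.32, and in the other 10 libraries both medians lay between -0.08 and 0.11. These medians cover the outer quartiles only and give no value for TMEM185B, HAUS8 and SLC44A4, which lie between them. BCLAF1 was lowest and HAUS8 and SLC44A4 were highest in dCas9 replicate 3. NIPBL-DT had 25.6 CPM there, level with replicates 1 and 2. TMEM185B and C1orf210 were lowest of the dCas9 libraries in replicate 3, at 33.0 and 2.59 CPM. For TMEM185B replicate 1 was close, at 33.4 CPM, and the C1orf210 level rests on 7 counts. Whether the tilt accounts for any of these levels was not tested.

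**Figure D5:**
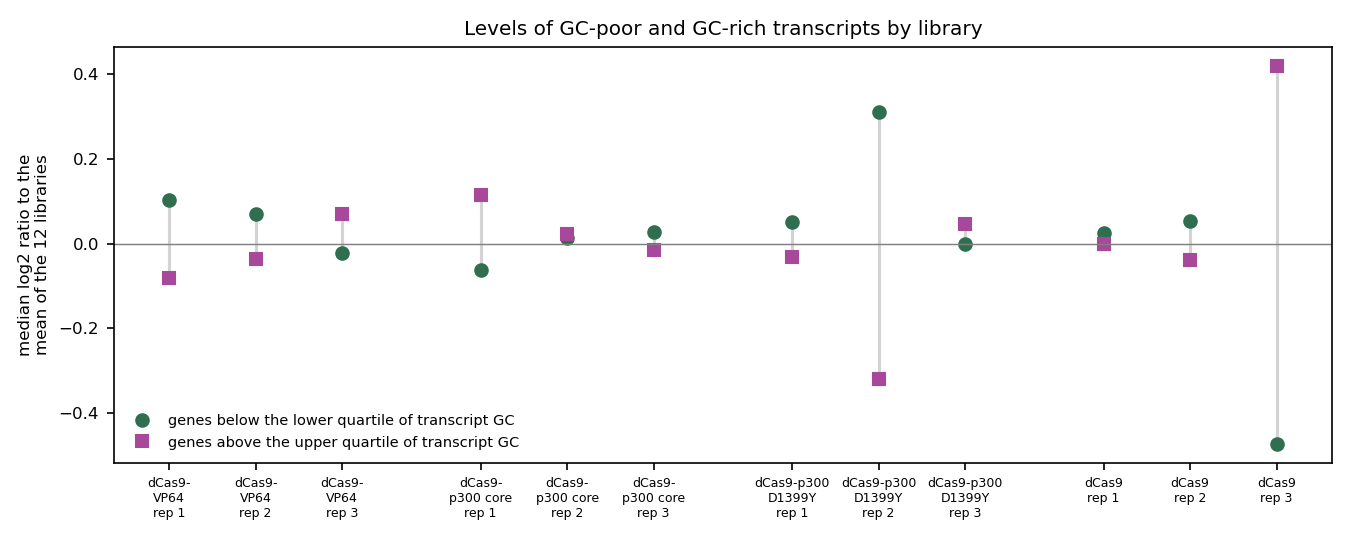
Median log2 ratio of each library to the 12-library mean (vertical axis) for genes below the lower and above the upper quartile of transcript GC content. dCas9 replicate 3 spans -0.47 to 0.42 and dCas9-p300 D1399Y replicate 2 spans -0.32 to 0.31 the other way, and the other libraries lie near 0.

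With offsets that remove each library's trend with transcript length and GC content, an alternative added after the data were seen, NIPBL-DT and BCLAF1 moved most. Their log2 differences from dCas9 were 0.30, 0.15 and 0.30 for NIPBL-DT and 0.34, 0.11 and 0.07 for BCLAF1 with dCas9-VP64, dCas9-p300 core and dCas9-p300 D1399Y. The adjusted NIPBL-DT level was 37.1 ± 1.44 CPM in dCas9-VP64 libraries, 33.5 ± 3.61 CPM in dCas9-p300 core libraries and 37.0 ± 1.78 CPM in dCas9-p300 D1399Y libraries, against 31.7 ± 10.8 CPM in dCas9 libraries (SD, n = 3). By library the adjusted dCas9 levels were 25.9, 25.1 and 44.2 CPM, so replicates 1 and 2 stayed below the lowest fusion library, at 31.0 CPM, and replicate 3 passed the highest, at 39.1 CPM. For BCLAF1 they were 284, 347 and 448 CPM, beside fusion libraries from 352 to 476 CPM. TMEM185B (0.65, 0.39 and 0.52), SLC44A4 (-0.39, -0.47 and -0.87) and HAUS8 (-0.33, -0.29 and -0.54) were left with all 3 dCas9 libraries outside all 9 fusion libraries. With these offsets all dCas9 libraries lay below all fusion libraries for 55 of 14088 genes and above them for 75. The members were chosen for this kind of difference, so nothing is read from its presence here. The adjusted C1orf210 differences were -1.61, -0.33 and -0.23.

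The genes whose levels ran most like each member's over the 12 libraries were named by Pearson correlation of log2 CPM, as a description, since all points share libraries, depth and the tilt with GC content. For BCLAF1 these were FBXL17, an F-box protein of a ubiquitin ligase (r = 0.97), and MED17, a subunit of Mediator (0.96). For NIPBL-DT the closest was FAM241A (0.91). For TMEM185B they were SYT14, a synaptotagmin (0.94), and PDSS2, an enzyme of coenzyme Q synthesis (0.90). SYT14 had 7.69, 5.60 and 3.05 CPM in dCas9-VP64 libraries, 4.77, 5.41 and 2.89 CPM in dCas9-p300 core libraries and 4.61, 6.94 and 2.66 CPM in dCas9-p300 D1399Y libraries, against 2.27, 2.15 and 2.59 CPM in dCas9 libraries. For C1orf210 they were CLPTM1 (0.83) and S100A11, a calcium-binding protein (0.79). SLC44A4 and HAUS8 were among each other's closest, at 0.92 over the 12 libraries and 0.84 over the 9 fusion libraries, with CHMP1A, an ESCRT subunit (0.89, to SLC44A4), and YIF1B, a Golgi protein (0.93, to HAUS8). Over the 9 fusion libraries alone, NIPBL-DT and BCLAF1 correlated at 0.61, BCLAF1 and TMEM185B at 0.79 and NIPBL-DT and TMEM185B at 0.57, against 0.84, 0.86 and 0.85 over all 12. The members were chosen by differences between dCas9 and the fusions, so that choice fixed part of the correlation over all 12 libraries. It can also enter the correlation over the 9 fusion libraries. SLC44A4 and HAUS8, for example, were both lowest on average in dCas9-p300 D1399Y libraries, at 3.21 and 16.2 CPM.

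The nearest tested genes beside the members varied in sign, and several turned without dCas9 replicate 3. Next to BCLAF1, MTFR2 had log2 differences from dCas9 of -0.14, -0.32 and -0.21 (SE 0.12 each), or -0.16, -0.34 and -0.22 without that library. MAP7, on the other side, had 0.12, 0.30 and 0.47 (SE 0.23 each), or -0.04, 0.15 and 0.32 without it. Beside TMEM185B, RALB had 0.03, 0.03 and 0.10, or 0.07, 0.07 and 0.15 without it. EPB41L5 had 0.18, 0.31 and 0.25, and these values turned to -0.14, -0.01 and -0.07 without dCas9 replicate 3, so its higher level with the fusions rested on 1 library. SLC1A3, on the far side of NIPBL-DT, had 0.15, -0.04 and -0.06, or -0.16, -0.35 and -0.37 without it. Beside SLC44A4, NEU1 had -0.13, -0.05 and -0.24, or -0.08, -0.0015 and -0.18 without it, and EHMT2 had -0.19, -0.13 and -0.22, or -0.02, 0.04 and -0.05 without it. Beside HAUS8, F2RL3 had -0.47, -0.35 and -0.47, or -0.11, 0.01 and -0.11 without it, and MYO9B had -0.03, 0.28 and 0.06, or -0.11, 0.20 and -0.02. EBNA1BP2, beside C1orf210, had 0.03, -0.09 and -0.23, and 0.39, 0.26 and 0.13 without it. None of these neighbours passed the edgeR test against dCas9, with or without that library.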

How the data were processed

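Poly(A) RNA of 12 HEK293T libraries was measured. The authors deposited whole-number read counts per RefSeq transcript, 1 table per library, unnormalised. Per the submitters' processing notes the build was hg19 and the tools included DESeq2 1.6.2 under R 3.1.2, Bowtie2, SAMtools and CASAVA, with roles, strand setting and treatment of reads shared by isoforms not given in the sources used here. Where reads of isoforms or copies are shared, the levels of a single transcript and the sum over a gene are both less certain.

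Of 40709 transcripts, 39324 were named from a RefSeq table and 517 from GENCODE 29, and 868 without a name held 1.07% of the counts. Counts were summed per gene to 24395 features. Both name tables and the start windows belong to GRCh38, so no coordinates are given for the counts. Genes were filtered with filterByExpr (minimum count 10, minimum total 15), scaled by TMM and tested with the two-sided quasi-likelihood test of edgeR 4.0.16 in R 4.3.3, in 1 fit of group means over 12 libraries, with Benjamini-Hochberg adjustment over 14613 genes and a threshold of 0.05. Errors beside log2 values are standard errors of the fit, no smaller than counting error allows, and CPM correlations used a prior count of 2. The test was checked on simulated counts with known changes. The simulation gave all genes the same spread and held neither the tilt with GC content nor the deviation of dCas9 replicate 3. It therefore does not show how many changes the test would find or miss in these libraries. Total counts ran from 2442960 to 5154627 per library. Counts without molecular identifiers are not independent molecules.

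The members and gene lists were chosen with earlier results of these data known. Named genes are the members, the nearest tested gene on either side, the 2 genes most correlated with each member, at most 3 genes per list by unadjusted p against dCas9, NIPBL, TMEM185A, IL1RN and genes called. Of the genes this rule selects, some are not reported here. Near-identical copies were sought in GENCODE transcripts at 95% identity over 200 bases. Alternatives were DESeq2 1.42.0, limma-voom (limma 3.58.1), upper-quartile and RLE factors, no filter, a filter at 1 CPM in 6 libraries, a block for the replicate number, the compared groups alone, the 9 fusion libraries alone, the CV41 libraries, the pool name as a covariate, single transcripts and leaving out each library. No scaling factor and offsets for length and GC content (at hand for 96.4% of tested genes) were added after seeing the data. Python 3.11.15, pandas 2.3.3 and matplotlib 3.10.9 were used.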

Additional observations from a re-analysis of the deposited data

How the results depend on the processing

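In the main fit 0 genes were called for dCas9-VP64 against dCas9, 1 for dCas9-p300 core against dCas9, 0 for D1399Y against dCas9, 1 for core against D1399Y, 1 for core against VP64 and 0 for VP64 against D1399Y. Between fusions, 0 of 444 values of the 6 genes under the alternatives were called, and the smallest adjusted p among them was 0.825. The signs against dCas9 were the same in 432 of 432 alternative values, but the choice of the genes fixed them.

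Counts of genes called moved as follows. RLE factors, limma-voom and no scaling factor each gave 2 for core against dCas9 and 1 for D1399Y against dCas9, and upper-quartile factors gave these and also 2 for core against VP64 and 1 for VP64 against D1399Y. DESeq2 gave 1, 4, 1, 4, 5 and 2 in the order above. With no filter VP64 against dCas9 gave 1, core against dCas9 3, D1399Y against dCas9 1, core against VP64 3 and VP64 against D1399Y 2, and with the stricter filter core against dCas9 gave 3 and D1399Y against dCas9 gave 1. Between fusions, the 2 groups alone gave 4, 6 and 2 and the 9 fusion libraries alone gave 5, 5 and 2. The CV41 libraries and the pool covariate each gave 0 for core against VP64. Offsets gave 1, 2 and 1 against dCas9, 4 for core against VP64 and 1 for VP64 against D1399Y, and single transcripts gave 6 for core against dCas9, 1 for D1399Y against dCas9, 4 for core against D1399Y and 5 for core against VP64. Leaving out 1 library gave 0 to 1, 1 to 2, 0 to 1, 1 to 5, 0 to 5 and 0 to 2. The cause was not tested.

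The 118 genes whose dCas9 libraries did not overlap the fusions became 185 in the CV41 libraries and 204 among single transcripts, where fewer libraries or more features enter, and between 126 and 1963 on leaving out a library, with 403, 1963 and 339 without dCas9 replicates 1, 2 and 3 and 180 without core replicate 1. This count was made for the scaling factors, the filters, the offsets, single transcripts and the settings that leave out libraries. NIPBL-DT, TMEM185B, SLC44A4 and HAUS8 were among them in each of these on gene counts except the offsets, which left out NIPBL-DT. Leaving out libraries can hardly make groups that stood apart overlap, so those settings do not test these genes. BCLAF1 joined them with upper-quartile factors and without dCas9 replicate 2 or core replicate 1, and C1orf210 in the CV41 libraries.

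Same-numbered libraries deviated together in 14 of 18 pairs at a correlation over 0.1, from -0.18 to 0.50, and 11 of 12 libraries correlated best with their own number, a hint from the data and not the design. The fit with the replicate block gave 1 for VP64 against dCas9, the other counts being unchanged, and 1 of 36 values of the 6 genes changed sign, C1orf210 between core and D1399Y at about 0.

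Depth limits C1orf210 and SLC44A4 most, with 3 to 14 and 11 to 25 counts per library.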
